A study of Homo sapiens with 4 samples.

Results

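The expression of 9 genes of MHC class I antigen presentation was measured by RNA-seq in RD and JR1 cells, established lines of fusion-negative rhabdomyosarcoma (FN-RMS), a childhood tumor of skeletal muscle lineage. The genes were chosen by name and function, by a rule that uses no measured value but was written with earlier results of these data known: the heavy chains HLA-B, HLA-C, HLA-E and HLA-F, the shared light chain B2M, the peptide transporter subunits TAP1 and TAP2, and the proteasome subunits PSMB8 and PSMB9. All 9 were found among the 39323 genes of the deposited tables, and 8 of them, without HLA-F, had a mean of at least 1 TPM (transcripts per 1000000 transcripts) over the 4 libraries, as did 12985 genes in all, which are called the tested genes. A lentiviral vector brought either a hairpin named shSKP2.2, against the F-box protein SKP2 of the SCF ubiquitin ligase (the shSKP2 group), or a scrambled hairpin (the shSCR group) into the cells. The labels give the genotype of the shSCR cells as WT and that of the shSKP2 cells as SKP2 knockdown. All 4 groups therefore carried a hairpin vector and had passed through puromycin selection, and no uninfected cells were analysed here. Each group was 1 poly-A selected library of 1 cell line, so differences between 2 groups carry no replicate error here and have no p-value.

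MHC class I molecules show peptides from the inside of a cell to CD8+ T cells and to natural killer cells. Proteins are cut by the proteasome, whose catalytic subunits can be exchanged for the inducible subunits PSMB8, PSMB9 and PSMB10, and the peptides are pumped into the endoplasmic reticulum (ER) by the TAP1-TAP2 transporter, where a heavy chain paired with B2M is loaded with the help of tapasin (TAPBP). Interferons raise the transcription of nearly the whole pathway through factors such as IRF1 and NLRC5, and rhabdomyosarcoma cells, like many tumors of childhood, are known for low class I levels.

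8 of the 9 genes lie on chromosome 6 and B2M lies on chromosome 15, from base 44711492 to base 44718145 (GRCh38, as in the deposited tables). TAP2 (32821831 to 32838739), PSMB8 (32840717 to 32844679), TAP1 (32845209 to 32853704) and PSMB9 (32854192 to 32859851) stand together within 38021 bases of the MHC class II region, with 487 bases between TAP1 and PSMB9. HLA-F (29723434 to 29740355) and HLA-E (30489508 to 30494194) lie apart from HLA-C (31268749 to 31272092) and HLA-B (31353875 to 31357179). The sequence before the start of these genes was read from RefSeq (GRCh38.p14), where 8 of the 9 genes were matched and HLA-E was not. The core of the interferon-stimulated response element was searched on both strands as GAAA, then any 2 bases, then GAAA. The search ran from 250 bases before to 50 bases after the start. The core was present for 5 of the 8 genes (HLA-F, B2M, TAP1, TAP2 and the downstream start of PSMB8). Counted by start site it was in 5 of the 10 member promoters, beside 3.57% of the 35116 promoters of the same length in the table. The 80 bases around it are shown for the 4 genes in which it lies wholly before the start, with the core in capitals, since these are the members with a match to the letters of the interferon response. On the strand of the gene it can read as its reverse complement, and in B2M and TAP1 a pair of overlapping cores forms 1 longer run. The TAP1 stretch lies between TAP1 and PSMB9, beyond the 250 bases searched before the start of PSMB9.
B2M, chr15:44711341-44711420, plus strand: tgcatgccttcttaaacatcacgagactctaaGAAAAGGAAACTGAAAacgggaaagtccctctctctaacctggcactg
TAP1, chr6:32853791-32853870, minus strand: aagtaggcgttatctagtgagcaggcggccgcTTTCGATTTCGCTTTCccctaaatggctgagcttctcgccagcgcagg
TAP2, chr6:32838753-32838832, minus strand: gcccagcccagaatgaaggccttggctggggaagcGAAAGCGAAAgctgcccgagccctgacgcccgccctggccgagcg
HLA-F, chr6:29723243-29723322, plus strand: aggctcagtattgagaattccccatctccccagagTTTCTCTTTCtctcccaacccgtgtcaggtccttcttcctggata

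The heavy chain genes share a second kind of element, the CCAAT box of the class I promoter, and the 100 bases from position -120 to position -21 are shown for HLA-B, HLA-C and HLA-F to let their likeness be seen. Capitals mark CCAAT on either strand (ATTGG is its reverse complement). The letters CCAAT were present for 6 of the 8 genes and in 6 of the 10 member promoters, beside 34.6% of all promoters in the table. In TAP1 and PSMB9 they lay only at -249 and -243, at the far end of the searched stretch and not at the place shown here. The gamma-activated sequence, searched as TTCNNNGAA on both strands, was present for TAP1 and PSMB8, each at a downstream start. These are 2 of the 10 member promoters, beside 7.66% of all promoters. These matches describe letters and are not measured binding sites.
HLA-B, chr6:31357200-31357299, minus strand: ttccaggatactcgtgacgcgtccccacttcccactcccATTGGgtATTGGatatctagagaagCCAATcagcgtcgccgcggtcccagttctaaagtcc
HLA-C, chr6:31272113-31272212, minus strand: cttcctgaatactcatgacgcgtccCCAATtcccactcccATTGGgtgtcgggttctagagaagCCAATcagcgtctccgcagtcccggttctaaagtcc
HLA-F, chr6:29723314-29723413, plus strand: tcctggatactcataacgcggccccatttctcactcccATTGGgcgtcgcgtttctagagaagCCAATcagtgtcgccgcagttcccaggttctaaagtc

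The targeted transcript SKP2 was at 92.8 TPM in RD shSCR, 7.40 in RD shSKP2, 46.5 in JR1 shSCR and 2.72 in JR1 shSKP2, so it was low in both libraries labelled as knockdown. Of 8 genes of the muscle lineage MYOD1, MYOG, DES, CHRNA1 and CDH15 were at 31.6 TPM or more and PAX7 at 1.16 TPM or more in every library, while MYF6 was at 0.5 TPM at most and MYF5 was listed at 0. PAX7, a gene of muscle stem cells, fell in RD and JR1 alike (-1.43), MYOG, a gene of muscle differentiation, had changes of 0.87 (RD) and 0.98 (JR1), and DES, a filament gene of muscle, had 0.14 and -0.50. The part of these lineage genes in the values of the class I genes was not tested. Of 11 markers of leukocytes, endothelium and epithelium only CD68 and KRT8 reached 1 TPM, the leukocyte gene PTPRC was at 0.01 TPM at most, and the sum of all 11 was 11.0 TPM in RD shSCR, 12.8 in RD shSKP2, 6.63 in JR1 shSCR and 9.70 in JR1 shSKP2. TPM sum to the same total in each library, and short structural RNAs such as 7SL took 50.1% of it in RD shSCR, 62.2% in RD shSKP2, 57.1% in JR1 shSCR and 64.9% in JR1 shSKP2. All other genes together had less of the total with shSKP2, though not each of them. Over the 12985 tested genes the median log2 change in RD was -0.27 and that in JR1 was -0.21. A change is log2 of (TPM + 1) with shSKP2 over (TPM + 1) with shSCR, which makes a low gene look less changed than its TPM ratio. Where it matters the change is given again with the short structural RNAs removed and TPM rescaled, and the medians over all genes were then 0.10 in RD and 0.03 in JR1. In bulk RNA, fewer cells that express a gene and less of its RNA per cell cannot be told apart.

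**Figure D1:**
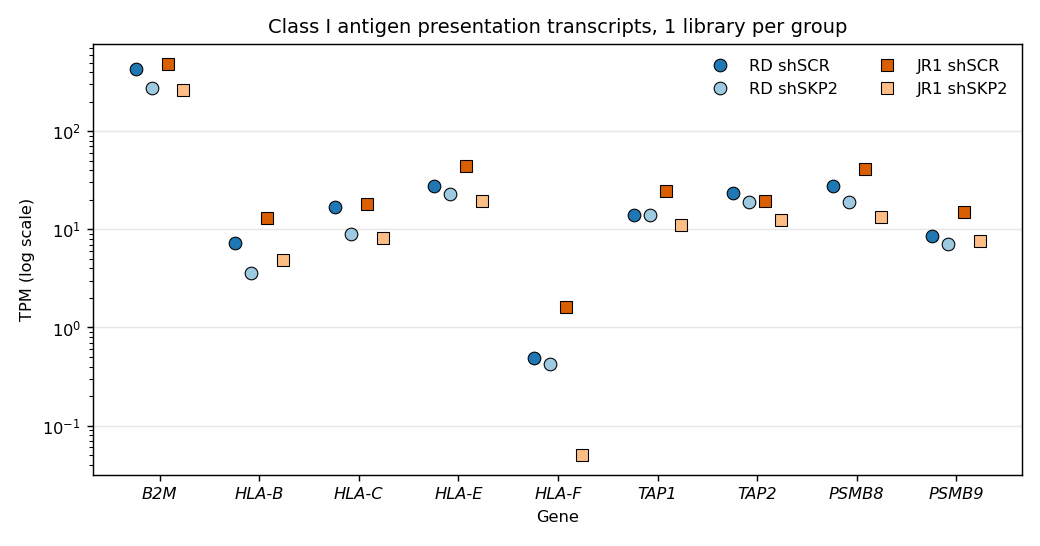
TPM of the 9 genes (log axis) in RD shSCR, RD shSKP2, JR1 shSCR and JR1 shSKP2, 1 point per library. B2M stood above every other member, between 260.3 and 488 TPM, and JR1 shSCR was the highest library for every member but TAP2.

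B2M, the light chain that every class I molecule needs at the surface, was the most abundant member in all 4 libraries. In RD it was at 433 TPM with shSCR and 277 with shSKP2, and in JR1 at 488 with shSCR and 260.3 with shSKP2. Both shSKP2 libraries were lower than both shSCR libraries. These are log2 changes of -0.64 (RD) and -0.90 (JR1), or -0.24 and -0.62 without the short structural RNAs.

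HLA-B and HLA-C encode classical heavy chains, the chains that present most peptides to T cells. HLA-B was at 7.25 TPM in RD shSCR, 3.58 in RD shSKP2, 12.96 in JR1 shSCR and 4.85 in JR1 shSKP2, log2 changes of -0.85 and -1.25. HLA-C was at 16.9 TPM in RD shSCR, 9.02 in RD shSKP2, 18.0 in JR1 shSCR and 8.14 in JR1 shSKP2, log2 changes of -0.83 and -1.05. For both genes each shSKP2 library lay below each shSCR library, and after removal of the short structural RNAs the changes were still below 0, at -0.57 and -1.07 for HLA-B and at -0.48 and -0.83 for HLA-C. The sum of both genes was 24.1 TPM in RD shSCR against 12.6 in RD shSKP2, and 30.9 in JR1 shSCR against 12.99 in JR1 shSKP2. HLA-C was the more abundant in every library, at 2.33 times HLA-B in RD shSCR and 2.52 times in RD shSKP2, against 1.39 and 1.68 times in JR1.

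The HLA genes are paralogs and differ between people, and the reads were aligned to a reference genome that need not hold the alleles of these lines, which could place reads at the wrong gene or lose them. In the GENCODE release 44 transcripts, 0% of the 150-base windows of the canonical transcripts of HLA-B, HLA-C, HLA-E and HLA-F occurred in a transcript of another gene. With windows of 75 bases the shares were 0% for HLA-B and HLA-F, 1.98% for HLA-C and 2.30% for HLA-E. These shares count identical stretches of the reference only, and how many reads of the alleles of RD and JR1 were lost or placed elsewhere is unknown. The level of 1 HLA gene in RD against JR1 is less certain than a change within a line, where the alleles are the same. The nonclassical HLA-G and the pseudogenes HLA-H, HLA-J, HLA-L and HLA-V had at most 0.610 TPM in any library.

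HLA-E and HLA-F encode nonclassical heavy chains, of which HLA-E presents leader peptides of other class I chains to natural killer cells. HLA-E was at 27.6 TPM in RD shSCR, 22.8 in RD shSKP2, 43.9 in JR1 shSCR and 19.3 in JR1 shSKP2. The JR1 values were the highest and the lowest of the 4, with a log2 change of -1.14, while the RD values lay between them with a change of -0.26, close to the median of all genes. HLA-F was listed at 0.490 TPM in RD shSCR, 0.420 in RD shSKP2, 1.63 in JR1 shSCR and 0.05 in JR1 shSKP2. Its mean level was below the minimum of 1 TPM, so with the deposited TPM it is left out of the counts past the limit and of the medians over 8 members, while counts of direction out of 9 include it. The log2 changes were -0.07 (RD) and -1.32 (JR1), and their size depended on the setting. They were 0.09 and -2.07 without the short structural RNAs and -0.18 and -3.53 with a pseudocount of 0.1 TPM.

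TAP1 and TAP2 encode the paired subunits of the transporter that brings peptides into the ER. TAP1 was at 14.1 TPM in RD shSCR, 13.97 in RD shSKP2, 24.7 in JR1 shSCR and 10.9 in JR1 shSKP2. With TPM as deposited its change in RD, -0.01, was the closest to 0 of the 9 genes, while in JR1 it was -1.10. Without the short structural RNAs it was 0.38 in RD, the highest of the 9, and -0.86 in JR1. TAP2 was at 23.3 TPM in RD shSCR, 19.0 in RD shSKP2, 19.6 in JR1 shSCR and 12.3 in JR1 shSKP2, log2 changes of -0.29 and -0.63. TAP2 was the only member that was higher in RD shSCR than in JR1 shSCR, and in JR1 its change was the smallest of the 9. 34.1% of the 150-base windows of its canonical transcript also occur in a readthrough transcript of another gene identifier (ENSG00000250264), so its value depends on how such reads were split.

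PSMB8 and PSMB9 encode catalytic subunits of the immunoproteasome, the form of the proteasome that favors peptides that fit class I grooves. PSMB8 was at 27.8 TPM in RD shSCR, 19.0 in RD shSKP2, 41.3 in JR1 shSCR and 13.5 in JR1 shSKP2. JR1 shSCR was again the highest library and JR1 shSKP2 the lowest, and the change of -1.55 in JR1 was the largest of the 8 tested members, against -0.53 in RD. PSMB9 was at 8.53 TPM in RD shSCR, 7.16 in RD shSKP2, 15.1 in JR1 shSCR and 7.61 in JR1 shSKP2, log2 changes of -0.22 and -0.90. The 3 libraries other than JR1 shSCR differed by little, between 7.16 and 8.53 TPM. PSMB8-AS1, which overlaps both PSMB8 and TAP1 on the map, had at most 0.950 TPM.

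A log2 change of at least 1, up or down, was taken as the limit for a called change. In JR1, 5 of the 8 tested members fell by that much (HLA-B, HLA-C, HLA-E, TAP1 and PSMB8) and 0 rose, where 9.05% of all tested genes fell and 1.78% rose. In RD, 0 of the 8 fell and 0 rose, where 7.37% of all tested genes fell and 1.08% rose. The median change of the 8 was -1.08 in JR1, which is 0.86 below the median of all tested genes, and 7.47% of all genes lay lower. In RD it was -0.41, which is 0.14 below the median of all genes, and 36.3% of all genes lay lower. With TPM as deposited all 9 members were lower with shSKP2 in both lines, but so were 74.99% of the tested genes in RD and 68.9% in JR1.

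The scaling turned the direction of 5 members in RD and of 0 in JR1. After removal of the short structural RNAs all 9 members had a mean of at least 1 TPM. HLA-F passed mainly through JR1 shSCR. Rescaled, it was at 0.98 TPM in RD shSCR, 1.11 in RD shSKP2, 3.8 in JR1 shSCR and 0.14 in JR1 shSKP2. Its fall in JR1 is measured from that same library, so its place in the count below is not separate support. In JR1 all 9 were still lower, with a median of -0.86, and 3 fell by at least 1 (HLA-B, HLA-F and PSMB8), where 6.74% of all genes fell. In RD the median was 0.09, against 0.10 for all genes, 0 fell by at least 1, where 3.42% of all genes fell, and HLA-E, HLA-F, TAP1, TAP2 and PSMB9 were then above 0, from 0.09 for HLA-F to 0.38 for TAP1. HLA-B, HLA-C, B2M and PSMB8 were below 0 in RD under each scaling and with either pseudocount tried.

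**Figure D2:**
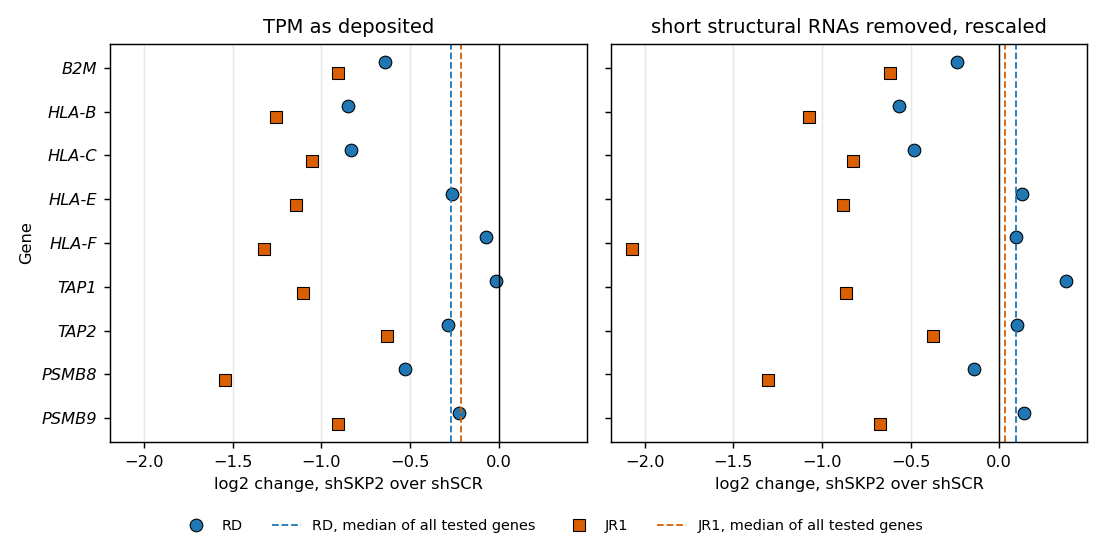
log2 change (shSKP2 over shSCR) of the 9 genes in RD (circles) and JR1 (squares), with TPM as deposited (left) and after removal of short structural RNAs (right); dashed lines are the medians of all tested genes. All JR1 points lie below the JR1 median in both panels, while in RD only the points of HLA-B, HLA-C, B2M and PSMB8 lie below 0 in the right panel.

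Both lines were also joined in a single fit, added after the data were seen, in which the line was a block and the hairpin the term of interest (limma on log2(TPM + 1)). This fit takes RD and JR1 as the replicates of the knockdown, and its 1 residual degree of freedom is helped by the spread shared over all genes. HLA-B (a log2 change of -1.05, adjusted p = 0.00605), HLA-C (-0.94, adjusted p = 0.00509), PSMB8 (-1.04, adjusted p = 0.0211), B2M (-0.77, adjusted p = 0.0114) and HLA-E (-0.70, adjusted p = 0.04997) were lower at an adjusted p under 0.05 in limma, 5 of the 8 tested members, beside 26.6% of all tested genes. TAP2, PSMB9 and TAP1 had adjusted p of 0.0541, 0.0661 and 0.138 in limma. Of all tested genes this fit called 3456 lower and 499 higher. After removal of the short structural RNAs HLA-B (-0.82, adjusted p = 0.0221 in limma) and HLA-C (-0.65, adjusted p = 0.0247) were the 2 of 9 members left, beside 10.5% of all genes. Of all genes 1541 were then called lower and 1608 higher, so the excess of lower calls depended on the scaling.

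The members were compared next between the lines. In shSCR 8 of the 9 were lower in RD than in JR1, the exception being TAP2, with log2 differences (RD over JR1) from -0.82 for HLA-F to 0.24 for TAP2, and 28.3% of all tested genes were lower in RD. None of the 8 tested members passed 1 on the log2 scale, while 3.45% of all tested genes were lower and 6.50% higher in RD by that much. The median difference of the 8 was -0.60, against 0.23 for all tested genes, and 6.79% of all genes lay lower. The members with the largest differences among those tested were HLA-B, TAP1 and PSMB9, each at -0.76, while HLA-C (-0.09) and B2M (-0.17) were nearly level. After removal of the short structural RNAs the median of the 9 was -0.88. Lower in RD by at least 1 were 3 of them, HLA-B, HLA-F and PSMB9, as were 5.72% of all genes. HLA-F had passed the minimum level mainly through JR1 shSCR, the library that RD is compared with here. TAP2 was then level, at 0.03, and it was at -0.05 when RMRP, RPPH1 and the transfer RNAs were left out too.

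In shSKP2 7 of the 9 members were higher in RD, where 31.9% of all tested genes were lower, so the members' directions were close to those of all genes. The log2 differences ran from -0.35 for HLA-B to 0.58 for TAP2, with a median over the 8 tested of 0.18 against 0.17 for all tested genes. 0 of the 8 passed 1 in either direction, where 2.70% of all tested genes were lower and 5.39% higher in RD. Only HLA-B and PSMB9 were lower in RD, PSMB9 at -0.08. After removal of the short structural RNAs B2M joined them, at -0.01, and 5 of the 9 were higher in RD when the differences were centred on the median of all tested genes. Because the shSCR and shSKP2 comparisons of the lines use the same libraries as the changes within each line, these values restate the same 4 numbers per gene and are not separate evidence.

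The change in RD minus the change in JR1 was above 0 for all 8 tested members, as it was for 42.1% of all tested genes. The median of this difference was 0.54 for the 8 members and -0.06 for all tested genes. It was at least 1 for 2 of the 8, TAP1 (1.09) and PSMB8 (1.02), where 1.57% of all tested genes passed that value. HLA-F, below the minimum level, had 1.26. After removal of the short structural RNAs the difference was above 0 for all 9, HLA-F among them mainly through its level in JR1 shSCR. It was at least 1 for 4 of them (HLA-E, HLA-F, TAP1 and PSMB8), where 3.60% of all genes passed. With TPM as deposited it was 0.88 for HLA-E and 0.68 for PSMB9, and smaller for HLA-B (0.41), TAP2 (0.34), B2M (0.26) and HLA-C (0.22). With 1 library per group no test of these values could be made, and line and culture cannot be told apart.

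**Figure D3:**
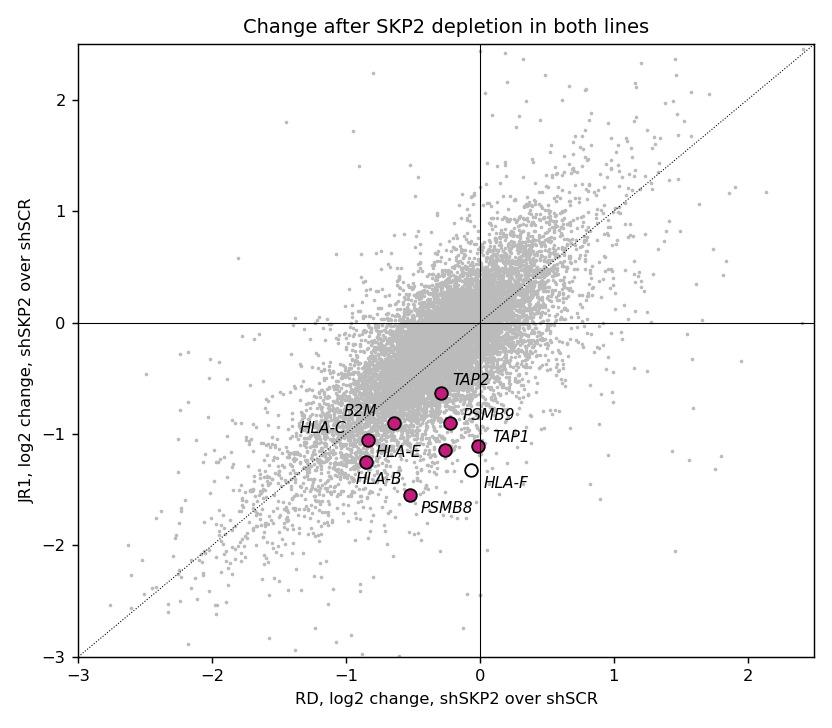
log2 change (shSKP2 over shSCR) in RD (x axis) and JR1 (y axis) for all tested genes (gray), the 8 tested members (filled) and HLA-F (open); the dotted line marks equal change, and 93 tested genes lie outside the axes. All 9 members lie below the dotted line, TAP1 at -0.01 in RD and -1.10 in JR1.

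Ratios between genes of the same library do not depend on the TPM total, so the inducible proteasome subunits were set against the constitutive subunits that they replace. PSMB8 over PSMB5 was 0.170 in RD shSCR and 0.152 in RD shSKP2, and 0.290 in JR1 shSCR and 0.136 in JR1 shSKP2. PSMB9 over PSMB6 was 0.0733 in RD shSCR and 0.0945 in RD shSKP2, and 0.186 in JR1 shSCR and 0.116 in JR1 shSKP2. PSMB10 over PSMB7 was 0.0389 in RD shSCR and 0.0185 in RD shSKP2, and 0.0657 in JR1 shSCR and 0.0197 in JR1 shSKP2. All 3 ratios were lower with shSKP2 in JR1, at 0.470, 0.623 and 0.300 of their shSCR values. In RD they parted, since the PSMB8 ratio was at 0.893 of its shSCR value, the PSMB9 ratio at 1.29 and the PSMB10 ratio at 0.474. PSMB10 shares 30.3% of its 150-base windows with the transcripts of another gene identifier (ENSG00000261884), which makes its level less certain.

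TAP1 over TAP2 was 0.605 in RD shSCR and 0.737 in RD shSKP2, and 1.26 in JR1 shSCR and 0.888 in JR1 shSKP2, so the ratio was higher with shSKP2 in RD and lower in JR1. The summed TPM of HLA-B and HLA-C over that of B2M was 0.0557 in RD shSCR and 0.0455 in RD shSKP2, and 0.0633 in JR1 shSCR and 0.0499 in JR1 shSKP2. This ratio with shSKP2 was 0.816 of that with shSCR in RD and 0.788 in JR1. With HLA-E and HLA-F added the lines parted, since B2M over the sum of the 4 heavy chain members was 8.295 in RD shSCR and 7.73 in RD shSKP2, and 6.39 in JR1 shSCR and 8.05 in JR1 shSKP2. HLA-E over HLA-B was 3.80 in RD shSCR and 6.37 in RD shSKP2, against 3.38 and 3.98 in JR1.

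**Figure D4:**
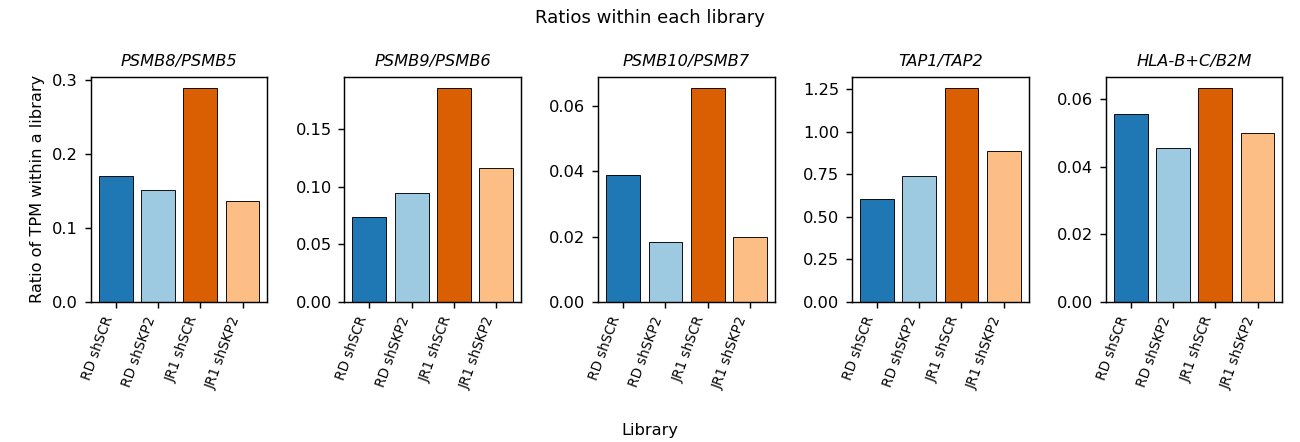
Ratios of TPM within each library (bars, 1 library each, axes from 0) for inducible over constitutive proteasome subunits, TAP1 over TAP2, and summed HLA-B and HLA-C over B2M. JR1 shSCR had the highest value of the 4 libraries in each of the 5 panels, 0.0633 for summed HLA-B and HLA-C over B2M.

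The rest of the pathway was measured with lists written from general knowledge. Of all tested genes 7.37% fell by at least 1 in RD and 9.05% in JR1, while 1.08% and 1.78% rose. In lists this short, 0 or 1 gene past the limit says little about the list. Of the other inducible proteasome parts, all 4 tested, PSMB10 fell in both lines (8.89 to 3.38 TPM, -1.18, in RD; 12.96 to 3.78 TPM, -1.55, in JR1), although the fall in RD was -0.92 without the short structural RNAs. PSME1, a subunit of the PA28 activator, fell in JR1, where it went from 92.1 to 36.7 TPM (-1.30), and went from 81.4 to 44.5 TPM (-0.86) in RD. Its partner PSME2 was at -0.08 (RD) and -0.33 (JR1). The constitutive counterparts PSMB5, PSMB6 and PSMB7 had 0 of 3 past the limit in either line, from -0.61 for PSMB6 to -0.32 for PSMB7 in RD and from -0.52 for PSMB5 to -0.04 for PSMB7 in JR1.

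Of 7 tested genes of peptide loading and folding in the ER, only TAPBP fell by at least 1. Of all tested genes 7.37% (RD) and 9.05% (JR1) fell by that much. TAPBP encodes tapasin, which bridges TAP and the heavy chain. It was at 78.2 TPM in RD shSCR, 33.5 in RD shSKP2, 57.1 in JR1 shSCR and 23.1 in JR1 shSKP2 (-1.20 and -1.27), and the highest changes of the list were those of UGGT1, a folding sensor, at -0.06 and 0.18. Without the short structural RNAs TAPBP was at -0.81 (RD) and -1.01 (JR1), so the fall in RD did not pass the limit. The general chaperones CALR, CANX, PDIA3 and HSPA5 had changes from -0.53 to -0.22 in RD and from -0.65 to -0.40 in JR1. Of the 5 tested peptidases 0 passed the limit, and ERAP1, which trims peptides in the ER, was at -0.66 (RD) and -0.41 (JR1). THOP1, a cytosolic peptidase, was the highest in RD (-0.19) and the lowest in JR1 (-0.42), where TPP2 was the highest (-0.14).

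Among 7 tested class I-like molecules FCGRT, the heavy chain of the neonatal Fc receptor, fell most, with 92.9 TPM in RD shSCR, 18.6 in RD shSKP2, 55.7 in JR1 shSCR and 10.9 in JR1 shSKP2, a log2 change of -2.26 in each line. HFE and MR1, whose products also pair with B2M, fell in JR1 (-1.19 and -1.32) and were at -0.93 and -0.44 in RD. HFE, a gene of at most 1.79 TPM, passed the limit in RD too once the short structural RNAs were removed. Its mean of 1.01 TPM passed the minimum through the shSCR libraries from which its falls are measured. The NKG2D ligand genes, whose products do not bind B2M, had 0 members past the limit. Of all tested genes 7.37% (RD) and 9.05% (JR1) fell by that much, and 1.08% and 1.78% rose. MICA was at -0.12 and -0.34, ULBP3 at -0.17 and -0.10, and ULBP1 at 0.44 in RD and 0.77 in JR1, a gene of 2.79 TPM at most that reached 1.22 in JR1 without the short structural RNAs.

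Of 12 tested regulators of class I transcription, 1 fell by at least 1 in RD (STAT2) and 4 did in JR1 (STAT2, IRF1, IRF9 and RFX5), and 0 rose, beside the 7.37% and 9.05% of all tested genes that fell. 1 of 12 is close to the share of all genes in RD. After removal of the short structural RNAs the falls were 1 in RD and 3 in JR1, beside 3.42% and 6.74% of all genes, and in JR1 RFX5 was at -0.87 and NFYA rose by at least 1 in JR1. STAT2, a factor of the response to type I interferon, was at 39.6 TPM in RD shSCR, 13.9 in RD shSKP2, 58.0 in JR1 shSCR and 16.6 in JR1 shSKP2 (-1.44 and -1.74). IRF1, one of the interferon factors named above, was at 8.28 TPM in RD shSCR, 3.77 in RD shSKP2, 13.4 in JR1 shSCR and 3.90 in JR1 shSKP2 (-0.96 and -1.56). IRF9 (-0.94 and -1.52) and RFX5 (-0.60 and -1.11) likewise had the lower change in JR1. NLRC5, the transactivator of class I promoters, was a gene of low level, at 3.21 TPM in RD shSCR, 2.73 in RD shSKP2, 6.42 in JR1 shSCR and 3.76 in JR1 shSKP2 (-0.17 and -0.64). NFYA, a subunit of the factor that binds CCAAT boxes, had the highest change of the list, 0.40 (RD) and 0.95 (JR1). Of 10 interferon genes, at least 7 were listed at 0 in each library, and the only one to reach 1 TPM was IFNL1, at 1.11 TPM in RD shSCR, 0.08 in RD shSKP2, 2.35 in JR1 shSCR and 0 in JR1 shSKP2.

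The MHC class II pathway was measured as well, since most of its genes are silent outside antigen-presenting cells. Of its 15 genes only HLA-DMA, CTSS and IFI30 passed the minimum level, and HLA-DRA, CD74 and CIITA had at most 0.290 TPM. CTSS, a lysosomal protease, was at 5.26 TPM in RD shSCR, 1.90 in RD shSKP2, 5.93 in JR1 shSCR and 1.42 in JR1 shSKP2 and fell in both lines (-1.11 and -1.52). HLA-DMA, a peptide exchange factor, was at 2.43 TPM in RD shSCR, 0.57 in RD shSKP2, 0.92 in JR1 shSCR and 0.14 in JR1 shSKP2 (-1.13 and -0.75). Its mean of 1.015 TPM passed the minimum through RD shSCR, the library from which its fall in RD is measured. That fall is therefore not separate support. IFI30, a lysosomal reductase, fell in JR1 (-1.002) and was at 0.26 in RD. Without the short structural RNAs CTSS in RD (-0.94) and IFI30 in JR1 (-0.73) no longer passed the limit, and HLA-DMA in JR1 (-1.17) did.

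**Figure D5:**
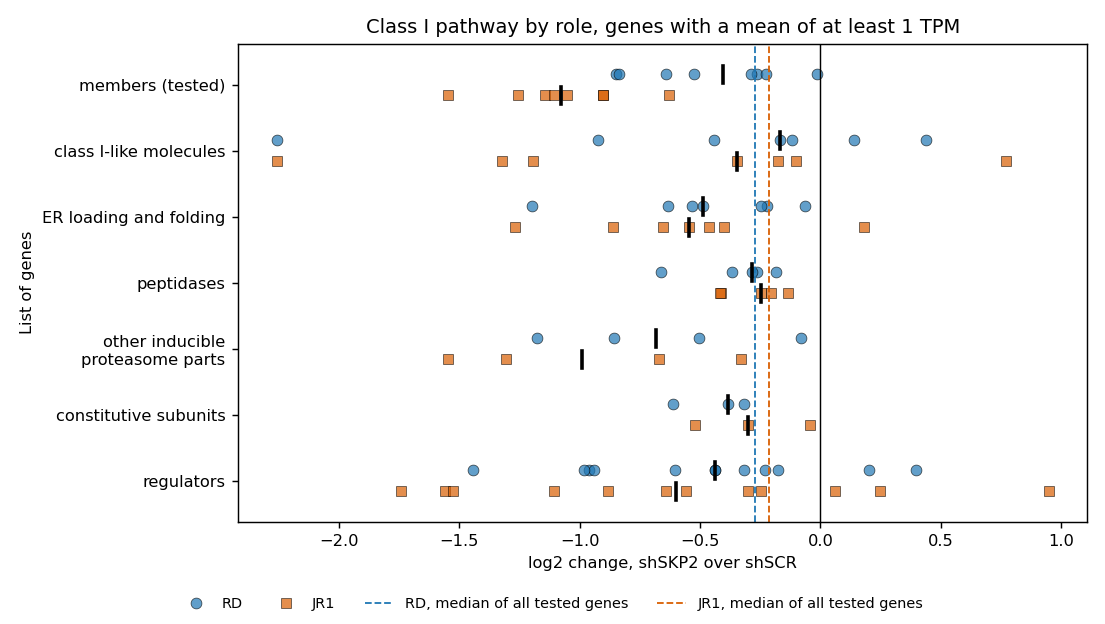
log2 change (shSKP2 over shSCR) of each tested gene in RD (circles) and JR1 (squares) by role in the class I pathway, with TPM as deposited; black bars are the medians of a list and dashed lines the medians of all tested genes. The members and the other inducible proteasome parts have the lowest JR1 medians drawn, -1.08 and -0.99, and FCGRT is the lowest point, at -2.26.

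The 5 genes whose profile over the 4 libraries lay closest to the mean profile of the members, among 8947 other genes of at least 5 TPM on average, were LGALS3BP, FKBP14, PDP1, VEGFC and NOCT. The measure was the Euclidean distance of log2(TPM + 1), centred on the mean of the 4 libraries, and it ran from 0.0535 for LGALS3BP to 0.142 for NOCT. LGALS3BP was at 144 TPM in RD shSCR, 103 in RD shSKP2, 194 in JR1 shSCR and 89.9 in JR1 shSKP2. Of the members, HLA-E lay closest to their mean profile (0.132) and TAP2 farthest (0.648), and 2014 of the other genes lay as close as or closer than TAP2, so 4 libraries do not single out a group of genes.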

How the data were processed

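RNA-seq of 4 groups (2 cell lines, each with the control or the SKP2 hairpin) was analysed, 1 library per group. The authors selected poly-A RNA, read pairs of 150 bases, mapped them to GRCh38 (STAR, version 2.7.9a) and estimated the deposited TPM in RSEM (version 1.3.2), tools that the submitters' processing notes name too. Each library's TPM are rounded to 2 decimals and total 1000000 up to rounding. Whether the counting used strand is not given in the sources used here. Read counts cannot be had from TPM, which leaves the depth unknown and allows no interval. The change was log2 of the ratio of TPM + 1 (a pseudocount of 1), for genes of at least 1 TPM on average, with a limit of 1 on the log2 scale.

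The members and the 12 lists (99 genes, of which 5 symbols were not matched in the tables) were chosen with earlier results of these data known. The named genes are the members, SKP2, the genes of each list past the limit or with its highest or lowest change, PSMB10, TAPBP, NLRC5, IRF1 and the 5 nearest profiles. Some genes of the rule, and the ratio built with them, are not reported here, and HLA-B and HLA-C over B2M was added after the data were seen. Other genes named were chosen after their values were seen. Alternatives were a pseudocount of 0.1, centring on the median of tested genes, removal of 640 short structural RNA genes (by symbol) or of 1059 with RMRP, RPPH1 and transfer RNA genes, minimum means of 5 TPM or above 0, and a limit of 1.5-fold. Transcript windows came from GENCODE release 44. A limma fit over both lines with the line as a block was added after the data were seen. The code was tested on simulated data. Python 3.11.15, numpy 2.4.6, pandas 2.3.3, matplotlib 3.10.9 and limma 3.58.1 (R 4.3.3) were used.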

Additional observations from a re-analysis of the deposited data

Results flagged for a closer look

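5 tested genes of the lists had changes of opposite sign in the lines with TPM as deposited, so the change in RD minus that in JR1 is given for each. The difference between the lines was not tested, since each group is 1 library. Without the short structural RNAs the signs were opposite for IFI30 (0.66 and -0.73) and DES (0.54 and -0.22), while those of NFYC, ULBP2 and UGGT1 were above 0 in both lines. IFI30, the lysosomal reductase, had a difference of 1.26, from log2 changes of 0.26 (RD) and -1.002 (JR1). DES, the muscle intermediate filament desmin, had a difference of 0.64, with 0.14 in RD and -0.50 in JR1. NFYC, a subunit of the CCAAT-binding factor, had a difference of -0.57, with -0.32 in RD and 0.25 in JR1. ULBP2, an NKG2D ligand of at most 2.47 TPM, had a difference of 0.31, with 0.14 in RD and -0.17 in JR1. UGGT1, the folding sensor of the ER, had a difference of -0.24, with -0.06 in RD and 0.18 in JR1.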

How the results depend on the processing

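The labels carry no replicate numbers, and the cell line was the only pairing. With the line as a block, a fit added after the data were seen, limma called 5 of 8 members lower, beside 26.6% of all tested genes. Without the short structural RNAs it called 2 of 9, beside 10.5% of all genes. Without the block it called 0 members and 7 of all tested genes, with 4 members and 2060 genes at an unadjusted p under 0.05. The JR1 median of the 9 members was -1.10 with TPM as deposited, -0.89 when centred, -0.86 without the short structural RNAs and -0.89 without RMRP, RPPH1 and transfer RNAs as well. The JR1 count of members that fell went from 5 to 2 when centred, to 3 and 3 with the removals and to 8 with the 1.5-fold limit. HLA-C, HLA-E and TAP1 were the members that no longer passed under each of the 3 scalings. Of all genes 9.05% fell by at least 1 in JR1 with TPM as deposited, and 6.74% without the short structural RNAs. The share of all genes was not counted for the other settings. The RD count went from 0 to 3 with the 1.5-fold limit. In RD 22.0% of all tested genes lay below RFX5 (-0.60), and in JR1 21.2% lay below TAP2 (-0.63). Both genes were just past the 1.5-fold limit, so many genes of any kind passed it. The count of members lower in RD than in JR1 in shSCR went from 0 to 3 and 4 with the removals and to 4 with the 1.5-fold limit. Of all genes 3.45% were lower by at least 1 with TPM as deposited, and 5.72% without the short structural RNAs. Below HLA-E (-0.65), the smallest of the 4 differences past 1.5-fold, lay 6.19% of all tested genes. Both the shSCR count and the JR1 count with the removals include HLA-F, which is highest in JR1 shSCR. The scalings change the share of the TPM total left for these genes by construction. The RD median of the 9 members, -0.29 with TPM as deposited, was -0.02 when centred and 0.09 or 0.11 with the removals. With a pseudocount of 0.1 TPM the calls within each line were the same for all 9 members, though HLA-F in JR1 moved from -1.32 to -3.53. TPM without read counts give no limit for genes such as HLA-F, listed at 0.05 TPM.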
